A study of Mus musculus with 7 samples.

Results

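The genes described here encode the proteins of the cytosolic ribosome (Rpl, Rplp and Rps genes) and of the mitochondrial ribosome (Mrpl and Mrps genes), the translation initiation factors (Eif genes) and the translation elongation factors (Eef genes). They were chosen by their symbols from 2 lists of m6A peaks, 1 of muscle and 1 of C2C12 myoblasts. The kinases named Rps6k and the pseudogenes named "-ps" were left out. Some symbols belong to accessory genes, such as those of kinases and binding proteins of these factors, of which the annotation holds 20. Of the 6392 gene symbols in either list, 100 belong to this set, 48 in muscle and 72 in C2C12, with 20 in both. The RefSeq annotation of GRCm38 holds 237 protein-coding genes that match the symbols, and 138 of them are in neither list. The remaining listed gene, Rps4l, is annotated as a transcribed pseudogene.

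In m6A MeRIP-Seq, mRNA fragments are captured with an antibody against N6-methyladenosine (m6A), and peaks are stretches where the captured fraction (IP) is enriched over the input. The muscle samples came from tamoxifen-treated C57BL/6 mice at day 2 after cardiotoxin (CTX) injury of the tibialis anterior, from METTL3 cKO mice (Pax7CreERT2; METTL3 flox/flox) and control mice (Pax7CreERT2; METTL3 wt/wt), with 1 IP and 1 input library for each genotype. Because Pax7 drives the Cre in muscle stem cells only, METTL3, the catalytic m6A methyltransferase, is not targeted in the other cells of these muscles, and the labels give the source as muscle but the cell type as muscle stem cell. The C2C12 mouse myoblast line has 2 IP libraries, labelled as knockout, and 1 input library, labelled as normal, while no knockout of this line is described in the study's methods, and the treatment label for all samples names 3 days in 2% horse serum for C2C12. The muscle list holds the peaks that passed the authors' comparison of the genotypes, not every peak called, so a gene absent from it may still carry a peak. Each list gives 1 entry per peak over its libraries, with no read counts and no value per library. No error between samples can therefore be given, no genotype effect is described and no test was made. Whether a listed share follows the abundance of an mRNA cannot be told apart from its methylation here, since neither list gives expression.

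Ribosomes are built from a large and a small subunit, and the cytosolic ribosome translates nuclear-encoded mRNAs, while the mitochondrial ribosome translates the few mRNAs of the mitochondrial genome, which encode subunits of the respiratory chain. Initiation factors bring mRNA, initiator tRNA and the small subunit together, and elongation factors deliver aminoacyl-tRNAs and move the ribosome along the mRNA. The mRNAs of cytosolic ribosomal proteins are short, abundant and mostly start with a C followed by a run of pyrimidines, the 5′ terminal oligopyrimidine (TOP) motif, through which mTORC1 and LARP1 control their translation.

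That start was looked for in the RefSeq sequences of GRCm38.p6, as a C at the first base of the transcript followed by at least 4 bases that are C or T, on the transcribed strand. It was present in 15 of 68 cytosolic ribosomal protein genes with a start sequence (22.1%), in 0 of 69 mitochondrial ribosomal protein genes and in 2 of 55 initiation and elongation genes (3.64%), beside 467 of 17491 protein-coding genes in all (2.67%). RefSeq starts can lie a few bases from the start used in a tissue, and 1 missing base ends a match, so these shares are counts of annotated starts only. Among the cytosolic genes it was present in 7 of the 22 listed in C2C12 (31.8%), in 8 of the 46 not listed there (17.4%) and in 0 of the 5 listed in muscle. The first 20 bases are shown for the 7 genes listed in C2C12 that have this start, with the pyrimidine run in capitals. These genes were picked for having it, and most cytosolic genes with a start sequence lacked it.
Rpl15 (chr14:18270967-18270986, minus strand): CTTCCTTTCCTCTggcggca
Rpl28 (chr7:4792965-4792984, plus strand): CTCTTTCCgtctccggccgc
Rpl35 (chr2:39005112-39005131, minus strand): CTCTTTCTCTCgaaccaggc
Rplp2 (chr7:141447651-141447670, plus strand): CTTTCgccgccggacgccgc
Rps10 (chr17:27635225-27635244, minus strand): CTTCCTTTCCagcctccgcc
Rps18 (chr17:33955646-33955665, minus strand): CTCTCTTCCacaggaggcct
Rps6 (chr4:86857348-86857367, minus strand): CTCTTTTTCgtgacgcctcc

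The muscle list also gives the GGAC sites, the core of the sequence that METTL3 methylates, inside each peak. A genome was not used here, so these sites could be read only where they fall in a sequence window around an annotated start. The window holds bases before the start and the 50 bases after it. Over all genes 106 listed sites did, counted once for each window that holds them, and 91 of them (85.8%) read GGAC in RefSeq. Among the genes described here this was the case for Mrpl57, a protein of the large mitochondrial subunit whose site lies 35 bases after the start, and for Eif4e2, a cap-binding relative of eIF4E whose site lies 32 bases after it. Both are shown on the plus strand with the site in capitals.
Mrpl57 (chr14:57826259-57826288): gccgcatcggtcgggGGACgcggagcgccg
Eif4e2 (chr1:87213930-87213959): gcccttagcgatgGGACccggtagagcgga

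The 2 kinds of ribosome were represented very differently in the muscle list. Of 88 annotated cytosolic ribosomal protein genes, 6 were listed in muscle (6.82%, 95% Wilson interval 3.16 to 14.1), whereas 26 of 78 mitochondrial ones were (33.3%, 23.9 to 44.4). These intervals cover counting error only. The initiation and elongation genes fell between, with 15 of 71 (21.1%, 13.2 to 32.0). For the whole set the share was 47 of 237 (19.8%, 15.3 to 25.4), close to the 16.9% of all 21896 protein-coding genes in this list. The cytosolic share lay below that background, which includes genes of every length, and the mitochondrial share above it, and the intervals of these 2 groups do not overlap. With peaks of at least the median fold enrichment, the values were 0 of 88 cytosolic and 17 of 78 mitochondrial genes (21.8%), beside 10.1% of protein-coding genes.

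In C2C12 the same gap was not seen when peaks of any annotation were counted. There 30 of 88 cytosolic (34.1%, 25.0 to 44.5), 24 of 78 mitochondrial (30.8%, 21.6 to 41.7) and 18 of 71 initiation and elongation genes (25.4%, 16.7 to 36.6) were listed, and the whole set reached 72 of 237 (30.4%, 24.9 to 36.5) beside 17.6% of protein-coding genes. The cytosolic figure depended on intron peaks, which are described with that group, and with exon peaks only it was 13 of 88 (14.8%, 8.84 to 23.7) beside 15.8% of all protein-coding genes. The mitochondrial figure with exon peaks was 22 of 78 (28.2%, 19.4 to 39.0), and that of the initiation and elongation genes was 14 of 71 (19.7%, 12.1 to 30.4). With exon peaks the cytosolic share thus lay below the mitochondrial one, as in muscle, though the intervals overlap.

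The genes of this set are short, with a median span of 5582 bp against 17149 bp for protein-coding genes, and the cytosolic ribosomal protein genes are the shortest, with a median of 3179 bp against 7690.5 bp for the mitochondrial ones. Of the 9324 protein-coding genes with a span of at most 12950 bp, the third quartile of the set, 10.7% were listed in muscle, 13.9% in C2C12 and 12.5% in C2C12 with an exon peak. The 178 genes of the set within that span reached 18.0% in muscle and 32.6% in C2C12. By group, the muscle shares within that span were 6 of 87 cytosolic (6.90%), 22 of 61 mitochondrial (36.1%) and 4 of 30 initiation and elongation genes (13.3%). The interval of the cytosolic share in muscle, 3.16 to 14.1, thus includes the 10.7% of short protein-coding genes, so that share lay near the background once length was considered, as did that of the initiation and elongation genes, while the mitochondrial share stayed above it. In C2C12 the values were 30 of 87 (34.5%), 21 of 61 (34.4%) and 7 of 30 (23.3%).

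**Figure D1:**
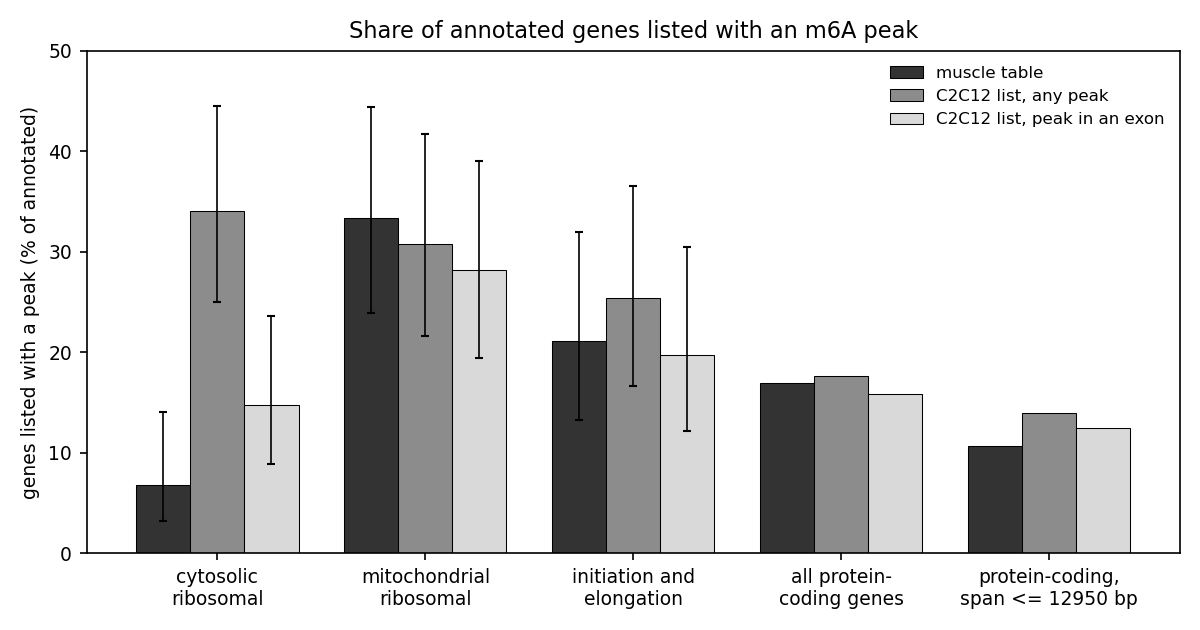
Share of annotated genes listed with an m6A peak (vertical axis, percent) for the 3 groups of genes and for all and short protein-coding genes, with bars for the muscle list, the C2C12 list and the C2C12 list with exon peaks only, and error bars for 95% Wilson intervals. The muscle bar is 6.82% for cytosolic and 33.3% for mitochondrial ribosomal protein genes, and the cytosolic C2C12 bar falls from 34.1% to 14.8% when intron peaks are left out.

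The muscle list held few peaks of cytosolic ribosomal protein genes, and those of the protein-coding ones were weak. Fold enrichment, the authors' ratio of IP over input for a peak, ran from 1.06 to 3860 over all 5412 muscle peaks, with a median of 12.9. Each value is 1 number for the peak, without replicates. None of the 6 protein-coding cytosolic genes reached that median. Rpl7l1, a paralog of Rpl7, had 3′UTR peaks of 12.6 and 7.68, and Rpl24, on the intersubunit face of the large subunit, had a coding peak of 10.2. Rpl10a, a protein of the L1 stalk where deacylated tRNA leaves the ribosome, had an exon peak of 9.60. Rpl3, which lies near the peptidyl transferase centre, had 7.95, and Rps24, a small subunit protein mutated in some cases of Diamond-Blackfan anaemia, had 5.00. Rpl36al, a retained copy of Rpl36a, was lowest with a 5′UTR peak of 2.61. The only high value carrying a cytosolic ribosomal protein symbol was 97.5 for the pseudogene Rps4l (chr6:148355333-148355598), and that peak also lies within the span of Tmtc1.

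The C2C12 list holds 34 peaks in 30 cytosolic ribosomal protein genes, and most of them were annotated to introns. The intron share was 20 of 34 peaks (58.8%, 42.2 to 73.6), against 4 of 26 in mitochondrial ribosomal protein genes (15.4%), 5 of 23 in initiation and elongation genes (21.7%), 12.4% of all 5433 peaks and 10.0% of the peaks of short genes. By gene, 19 of 88 cytosolic genes had an intron peak (21.6%), beside 2.16% of all protein-coding genes. For 16 of the 30 listed genes the intron was the only annotation. Among these were Rpl7a, Rpl11, Rpl15, Rpl19, Rpl21, Rpl27a, Rpl28, Rpl35 and the stalk protein gene Rplp2 for the large subunit, and Rps9, Rps13, Rps19, Rps23 and Rps27l for the small subunit.

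The intron peaks were short. The shortest peak in the C2C12 list is 199 bp long and the median is 285 bp, while the 20 cytosolic intron peaks had a median of 202.5 bp and ran from 199 to 238 bp. At most 210 bp were covered by 13 of these 20, against 29.3% of all intron peaks. Among peaks of at most 228 bp, the first quartile of all lengths, introns took 18 of 20 cytosolic peaks (90.0%) and 23.3% of all peaks. Above that length they took 2 of 14 cytosolic peaks and 8.74% of all. With the longer peaks alone, 14 of 88 cytosolic ribosomal protein genes were listed (15.9%), beside 13.9% of protein-coding genes. The C2C12 list has no fold enrichment or p-value, so the strength of these peaks is unknown. The annotation holds 309 "-ps" pseudogenes of Rpl and Rps genes, and how reads that match several copies were handled is not given in the sources used here, so the assignment of a peak to 1 gene of this family is uncertain, and the part of such copies in the intron peaks was not tested.

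The 11 coding exon peaks of cytosolic genes in C2C12 had a median of 310 bp and ran from 203 bp, in Rps10, to 565 bp. Rps15, which lies at the decoding site, had a coding peak of 565 bp, Rpl36 one of 456 bp and Rpl36al one of 423 bp. Rpl41, which encodes a very short protein, had a 3′UTR peak of 447 bp. Rplp0, the base of the stalk that recruits elongation factors, had a coding peak of 375 bp, Rps18 one of 348 bp, Rpl13a one of 309 bp, Rps6, the substrate of S6 kinase, one of 301 bp and Rpl29 one of 272 bp. Rpl8, Rpl23a and Rps10 had 1 coding and 1 intron peak each, together 511 bp, 449 bp and 404 bp. Rps19bp1, which binds Rps19 and is not itself a ribosomal protein, had a 3′UTR peak of 439 bp. Rplp1 stood apart with a peak of 222 bp annotated upstream, centred within 1 bp of the start of its transcript.

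**Figure D2:**
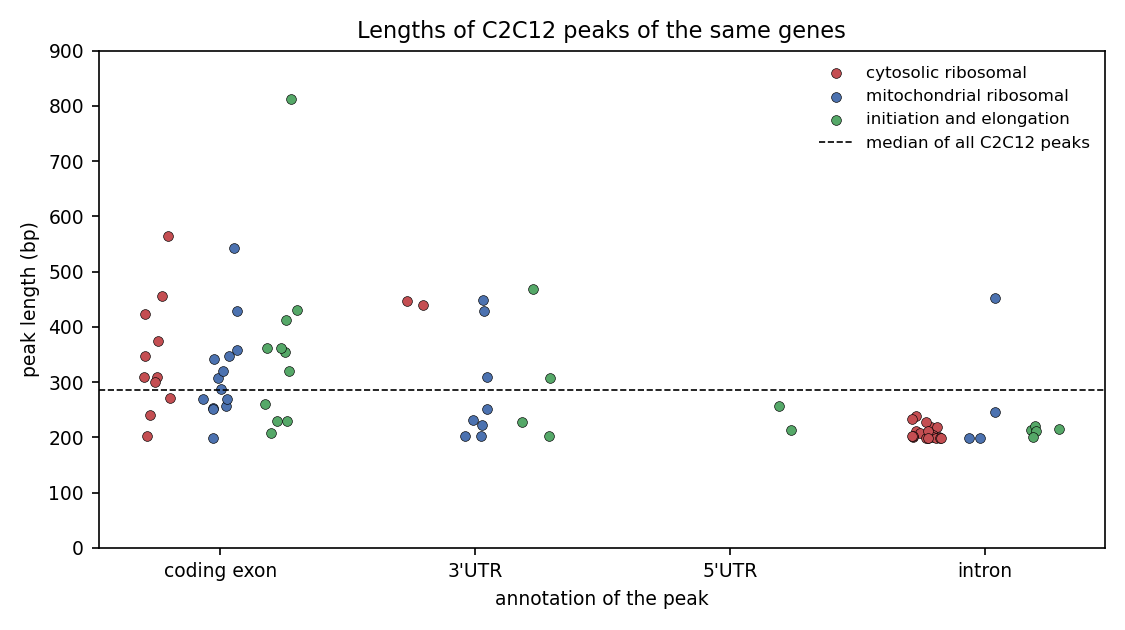
Length of each C2C12 peak of the set (vertical axis, bp) by its annotation (horizontal axis), 1 point per peak, coloured by group, with the median of all C2C12 peaks (285 bp) as a dashed line. The 20 cytosolic intron peaks lie between 199 and 238 bp, and 1 upstream and 1 downstream peak are not drawn.

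Of the 3 groups, the mitochondrial ribosomal protein genes had the highest median fold enrichment of their peaks in muscle. Their 29 peaks in 26 genes had a median fold enrichment of 17.0, and 19 of the 29 (65.5%) were at or above the median of all peaks. Both subunits took part, with 16 of 49 large subunit genes and 10 of 29 small subunit genes. Mrpl46 had the highest value, 306 (rank 246 of 5412), in an exon peak of 2 blocks and 472 bp with 6 GGAC sites. Mrpl41 had a coding peak of 87.1 (chr2:24974147-24974891), Mrps23 peaks of 55.9 in the 3′UTR and 13.0 in the 5′UTR, Mrps28 a coding peak of 53.1, and Mrps7, which corresponds to the bacterial small subunit protein that organises the head of the subunit, a coding peak of 47.0 and a start codon peak of 11.1. These 5 genes were the highest of their group by rule. Outside the group, peaks of Rps4l (97.5), Eif1a (67.5), Eif4ebp2 (65.7) and Eif2ak2 (58.8) also lay above that of Mrps23. At the other end, Mrps5 had 2.07 and Mrpl53 had 2.55.

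Some of these peaks overlap the position of a neighbouring gene. The strand of the neighbour was compared only for Gm42688, so the other overlaps are by position alone. The 3′UTR peak of Mrpl43 (34.8) also lies within the span of Twnk, the mitochondrial DNA helicase, and the Mrps7 start codon peak within that of Gga3. The Mrpl57 coding peak (17.0) overlaps Ska3, and the Mrpl53 peak overlaps the listed gene Gm42688 on the same strand. The exon peak of Mrps24 with a fold enrichment of 21.6 lies outside the RefSeq span of Mrps24 and within Urgcp, and it is the only 1 of the 58 peaks of the set outside its own gene. The second Mrps24 peak, of 15.2, lies in its coding sequence.

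In C2C12, 24 mitochondrial ribosomal protein genes were listed, 15 of the large and 9 of the small subunit, and of their 26 peaks 14 lay in coding exons (53.8%) and 8 were 3′UTR peaks (30.8%), near the shares of all peaks (52.6% and 25.9%). Mrps6 differed from the rest, with 3 peaks of 850 bp in all, every one annotated to introns. Only 1 other intron peak was found in this group, in Mrpl52. Mrps7 had a coding peak of 543 bp and Mrpl12, which also binds the mitochondrial RNA polymerase, a 3′UTR peak of 448 bp.

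By listed share, the initiation and elongation genes lay between the other groups in muscle. In C2C12 they were lowest of the 3 with peaks of any annotation, where the intervals overlap. With exon peaks they lay above the cytosolic genes (19.7% against 14.8%). Their muscle peaks were mostly weak. Their 21 muscle peaks had a median fold enrichment of 5.47, and 7 of them (33.3%) were at or above the median of all peaks. The 7 belong to 6 genes. Eif1a, which helps the scanning ribosome find the start codon, had a coding peak of 67.5 over 900 bp and a 3′UTR peak of 4.72. Eif4ebp2, a repressor that holds eIF4E away from eIF4G until mTORC1 phosphorylates it, had 2 peaks annotated to the 3′UTR, of 65.7 and 26.4. Eif2ak2, the double-stranded RNA kinase PKR, had a 3′UTR peak of 58.8 over 1824 bp and a 5′UTR peak of 6.26, and 1 of these overlaps Gm26637. Eif4g3, a scaffold of the cap-binding complex, had 33.7, Eif4e2 had 31.6 in the 3′UTR and 3.67 near its start, and Eif5b, which joins the subunits, had 15.3 in the coding sequence and 4.03 in the 5′UTR.

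Read by role, the listed genes were spread over several steps of initiation. The groups are small, and at the 16.9% and 17.6% of all protein-coding genes in the lists, counts of 0 or 1 in 6 genes are near the background. Of 14 genes of eIF3, the large complex that binds the small subunit, muscle listed Eif3a (5.54), Eif3j1 (5.05) and Eif3b (4.80), and C2C12 listed Eif3a with 3 peaks of 802 bp. Of 13 eIF4 genes, which bind the cap and unwind the 5′UTR, muscle listed Eif4e2, Eif4g3 and Eif4g2 (4.11 and 2.77), and C2C12 listed Eif4a1, Eif4e2, Eif4g1 and Eif4g3. Of the 4 genes grouped as eIF4E-binding proteins, Eif4ebp2 was in both lists, Eif4ebp1 in C2C12 and Eif4enif1 in muscle (3.62). None of the 6 genes of eIF2 and related factors, which carry the initiator tRNA, was listed in muscle, and Eif2a was the only 1 in C2C12. Of the 5 subunits of eIF2B, the exchange factor of eIF2, Eif2b2 was in both lists (6.65 in muscle). Of the 4 kinases that phosphorylate eIF2 under stress, Eif2ak2 was in both, and Eif2ak3, the endoplasmic reticulum kinase PERK, had 2 C2C12 peaks of 548 bp. Eif5, the GTPase activator of eIF2, had 1.99 in muscle, Eif1 had a 5′UTR peak in C2C12 centred 9 bp from the start, and Eif6, which keeps the large subunit from joining early, had a 5′UTR peak of 256 bp there. Eif5a, listed in C2C12 only by an intron peak, encodes the factor that carries hypusine.

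Of 15 elongation genes, 2 were in each list (13.3%), near the 16.9% and 17.6% of all protein-coding genes. The 15 comprise 5 eEF1 genes, 1 eEF2 gene and 9 genes for modifiers and partners of these factors. Of the 9, 1 was listed in muscle and 0 in C2C12, and of the 5 eEF1 genes, 0 and 2. Muscle listed Eef2, the translocation factor, with 1.90, the lowest value of the set, and Eef2k, the kinase that inactivates it, with 5.47. C2C12 listed Eef1a1, which delivers aminoacyl-tRNA, with 3 peaks covering 930 bp, the most of any gene in the set (rank 349 of 3970 genes by covered length), and Eef1d, a subunit of its exchange factor, with an intron peak of 221 bp. Eef1a2, the form of adult muscle, was in neither list.

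**Figure D3:**
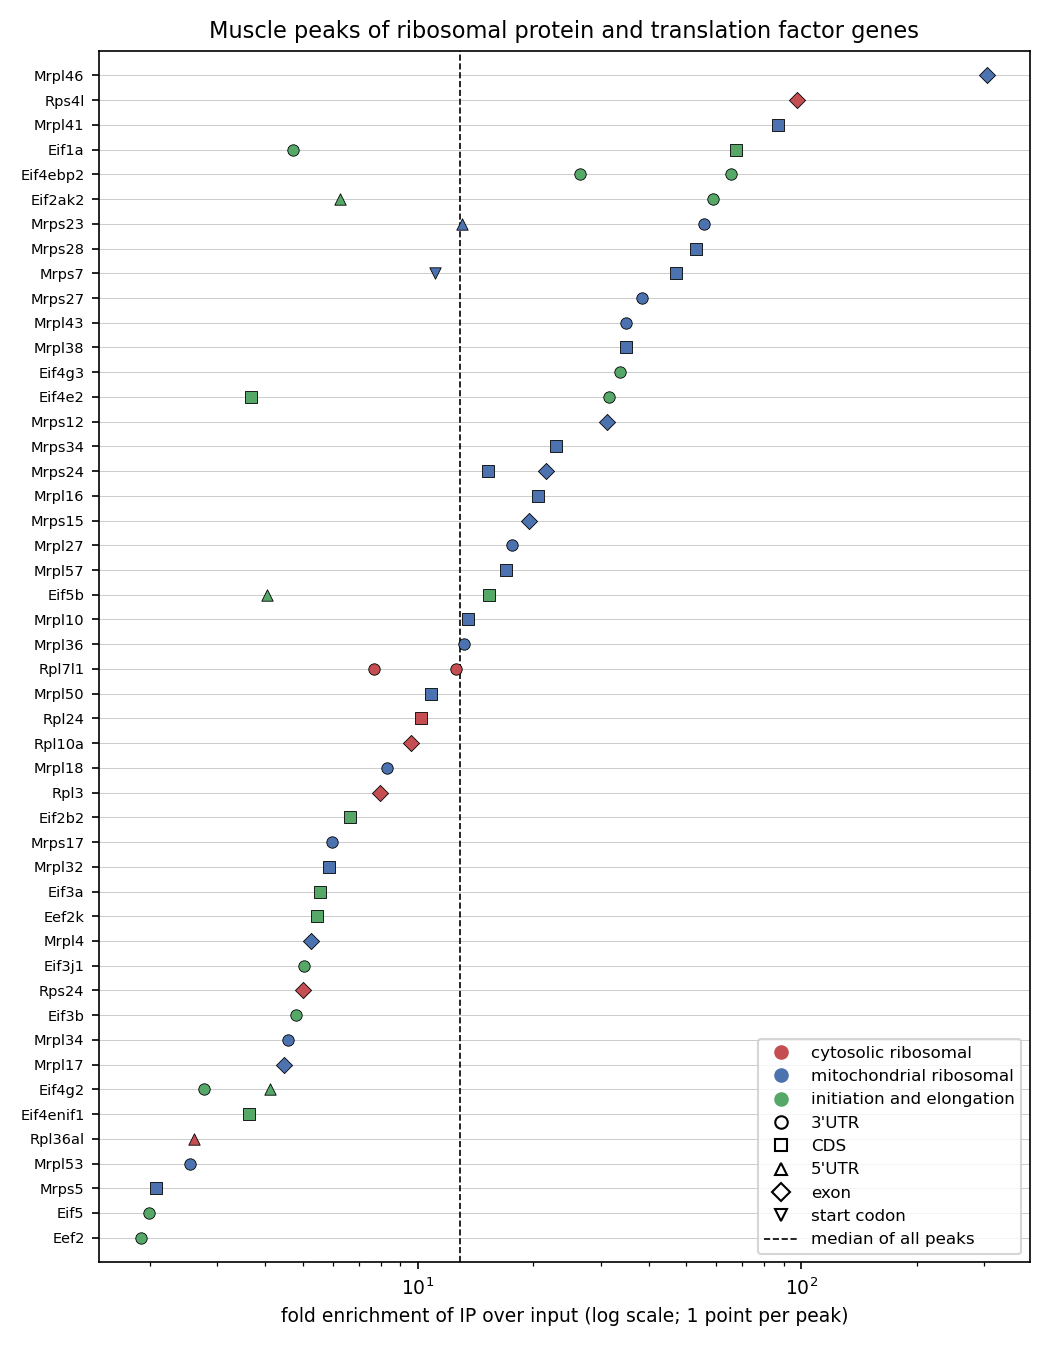
Fold enrichment of IP over input (horizontal log axis) of each muscle peak of the 48 listed genes (rows, ordered by their strongest peak), with 1 point per peak, colour for the group, shape for the annotation, and a dashed line at the median of all peaks (12.9). Mitochondrial ribosomal protein genes fill most of the upper rows, and the 6 protein-coding cytosolic ribosomal protein genes lie at or below 12.6.

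Over the 58 muscle peaks of the set, the median fold enrichment was 10.95, and 27 (46.6%) were at or above the median of all peaks. The 3′UTR held 22 of them (37.9%, 26.6 to 50.8) against 48.0% of all muscle peaks, and the coding sequence held 20 (34.5%) against 31.9%. Of the 58, 28 were centred in the last 20% of the gene span. A further 12 were centred in the first 20% or before the gene start, among them the Mrps24 peak that lies outside its gene. These shares were not computed over all peaks. More than 1 peak was found in 10 of 48 genes in muscle (20.8%, against 25.0% of all genes) and in 8 of 72 in C2C12 (11.1%, against 25.8%).

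**Figure D4:**
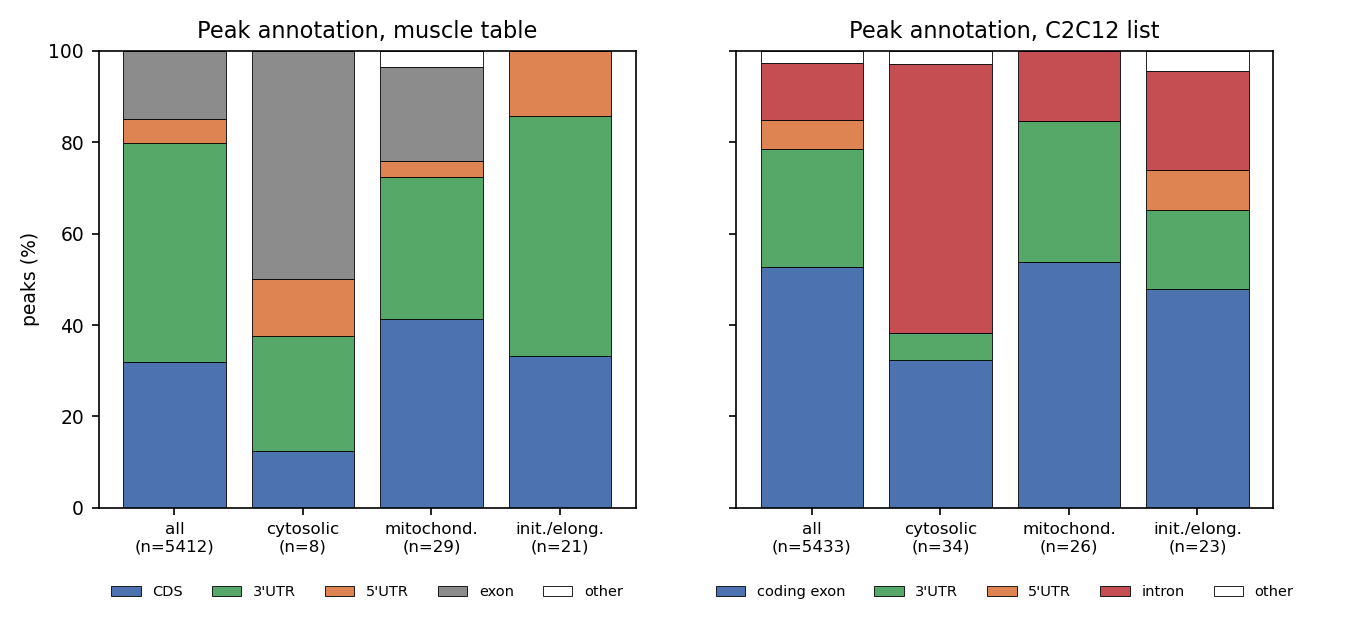
Share of peaks by annotation (vertical axis, percent) in the muscle list (left) and the C2C12 list (right), for all peaks and for the 3 groups of genes, with the number of peaks under each bar. Introns take 58.8% of the cytosolic ribosomal C2C12 peaks and 12.4% of all C2C12 peaks, and the 8 cytosolic muscle peaks include the pseudogene Rps4l.

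GGAC sites were found in 42 of the 58 muscle peaks (72.4%, 59.8 to 82.2), close to the 70.6% of all peaks, and the density was 4.91 sites per kb of peak against 4.63. By group the share was 23 of 29 mitochondrial (79.3%), 15 of 21 initiation and elongation (71.4%) and 4 of 8 cytosolic peaks, Rps4l included. As over all peaks, the share was larger where enrichment was higher. It was 81.5% for the peaks of the set that reached the overall median enrichment and 64.5% for the others, beside 85.8% and 55.2% for all peaks. Stronger peaks are also longer, with a median of 510 bp against 240 bp in the set. In random sequence with equal base frequencies, 82.1% and 60.4% of peaks with the lengths of the set would hold GGAC. Over all peaks these values would be 87.3% and 60.9%. Without the split by enrichment they would be 70.5% for the set and 74.1% for all peaks. The shares with GGAC thus lay near those given by length alone, and methylation of the sites was not tested. Mrps34 had the most sites, 7 in a peak of 22.9. Single peaks departed from the pattern. Eef2 had 4 sites in its peak of 1.90, and the peak of 21.6 listed for Mrps24, which lies within Urgcp, had none.

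The 20 genes in both lists make up 8.44% of the 237, beside 7.31% of all protein-coding genes. They comprise 11 mitochondrial ribosomal protein genes (Mrpl16, Mrpl17, Mrpl27, Mrpl41, Mrpl43, Mrpl46, Mrpl53, Mrps7, Mrps12, Mrps24 and Mrps34), 8 initiation genes (Eif1a, Eif2ak2, Eif2b2, Eif3a, Eif4e2, Eif4ebp2, Eif4g3 and Eif5b) and, for the cytosolic ribosome, Rpl36al alone. As a share of each list, 41.7% of the muscle genes were in the C2C12 list and 27.8% of the C2C12 genes in the muscle list, against 43.2% and 41.4% over all protein-coding genes. The strongest muscle peak had a median fold enrichment of 27 in the shared genes and of 8.14 in the 28 listed in muscle only, and over all genes these medians were 39.7 and 13.3.

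Many of the shared genes had peak centres at nearly the same distance from the annotated start in both lists. Since only 9.43% of C2C12 peaks fall within the span of their gene on GRCm38, although the labels name mm10, C2C12 coordinates were not used. Positions were compared as deposited distances from a transcript start in C2C12 and as distances from the RefSeq gene start in muscle. These starts can differ, so a large gap need not be a difference in position. The nearest peak centres were within 300 bp of each other in 15 of 20 genes, with a median gap of 109 bp. For all 1601 protein-coding genes in both lists this was 703 genes (43.9%) with a median gap of 482.5 bp. Gaps are smaller in short genes, where it was 293 of 491 (59.7%) for all genes and 13 of 14 for the genes of the set. In Eif3a the coding peaks were centred 24050.5 bp from the start in muscle and 24051 bp in C2C12. The gap was 10.5 bp in Mrpl53, 15.0 bp in Mrpl16, 22.5 bp in Eif1a, 23.5 bp in Mrpl27, 28 bp in Mrpl17 and 47.5 bp in Eif2b2. In 5 genes it was over 300 bp, namely Eif4g3, Eif5b, Mrpl46, Eif4ebp2 and Eif2ak2 (450.5 bp). The Mrpl46 muscle peak is 1 of 9 that span 2 exon blocks, so its centre lies between the blocks and its gap of 2359.5 bp is not a distance between exons. The nearest muscle peaks of Mrpl41, Mrps7, Mrps12 and Mrps34 also span 2 blocks. By annotation, 13 of the 20 genes had a class in common between the lists and 7 did not, with the muscle class exon counted as different from coding.

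**Figure D5:**
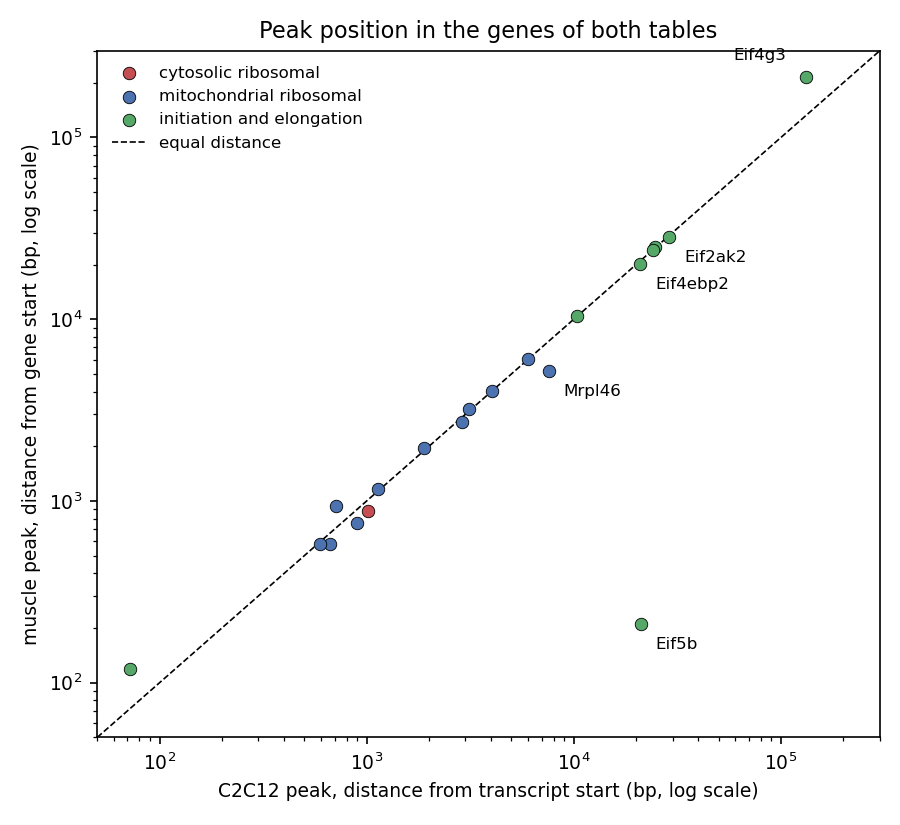
Distance of the nearest peak pair from the transcript start in C2C12 (horizontal log axis, bp) and from the gene start in muscle (vertical log axis, bp) for the 20 genes in both lists. A dashed line marks equal distance, and names are given for the 5 genes with a gap over 300 bp. The other 15 genes lie along the line, from Eif2b2 near the start (72 bp in C2C12) to Eif4e2 and Eif3a.

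The other genes of translation are read against the 16.9% of protein-coding genes in the muscle list and the 17.6% in the C2C12 list, and no difference between the lists was tested. Of 18 genes grouped as mTORC1 and S6 kinase signalling, 9 were listed in muscle (50%) and 3 in C2C12 (16.7%, near the background). The grouping is broad, and the 9 include the kinase genes Rps6ka1, Rps6ka3 and Mknk2. In muscle Mlst8, a subunit of mTORC1, had a fold enrichment of 184, Larp1, which binds TOP mRNAs, had 125, and Mtor itself had 33.7, and Larp1 also had 3 C2C12 peaks of 778 bp. Of 8 genes of the integrated stress response, which follows eIF2 phosphorylation, 1 was listed in muscle (Ppp1r15a, 49.8) and 7 in C2C12 (Atf4, Atf5, Chac1, Ddit3, Ppp1r15a, Ppp1r15b and Trib3). Of 30 genes of ribosome biogenesis 9 were listed in muscle and 13 in C2C12. For aminoacyl-tRNA synthetases it was 4 and 6 of 20 cytosolic genes, with Aars at 474 in muscle, and 2 and 5 of 17 mitochondrial genes, with Mars2 at 398. Of 10 mitochondrial translation factors, muscle listed Mtif3 (199) and Gfm1 (14.4), and C2C12 listed Mtif3. The release and recycling factors were 3 of 9 in each list, with Pelo, which rescues stalled ribosomes, at 163 in muscle. The poly(A) binding proteins and partners were 1 of 9 in each, Paip1 in muscle and Pabpc1 in C2C12. Of 9 ribosomal proteins outside the symbol rule, Gadd45gip1 was in both lists.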

How the data were processed

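The authors called the peaks and deposited 1 list for muscle (5412 peaks) and 1 for C2C12 (5433 peaks). The muscle list gives for each peak the fold enrichment of IP over input as deposited by the authors, a ratio, with its position, exon blocks, annotation and GGAC sites, and its column names are those of the R package exomePeak. It also holds log2 fold changes, p-values and FDRs of the authors' comparison of the genotypes, which were not used. The C2C12 list gives positions, annotation and the distance to the transcript start. The submitters' processing notes name TopHat, MACS2 and mm10. Their settings and which list each served are not given in the sources used here. Columns of single samples that were left out numbered 0.

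Members were found by symbol, and shares were taken over the protein-coding genes of RefSeq GRCm38 (21896 genes). The members and gene lists were chosen with earlier results of these data known. The rule for the genes named was every cytosolic ribosomal protein gene listed, the 5 mitochondrial ribosomal and 12 initiation or elongation genes with the strongest muscle peak, every gene in both lists and the 5 genes with the most C2C12 peaks. Further genes were named after their values were seen, where a count was 5 or fewer or a sequence or overlap was described. A few genes that the rule selects are not reported here. Muscle symbols matched RefSeq for 3808 of 3980 and C2C12 genes for 3966 of 3970. Depth is unknown, since no counts are given. Python 3.11.15 was used with pandas 2.3.3 and numpy 2.4.6, figures were drawn with matplotlib 3.10.9, and the counting was tested on simulated lists. Alternatives concerned the genes counted, weak or intron peaks, name matching, accessory genes and gene length.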

Additional observations from a re-analysis of the deposited data

How the results depend on the processing

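With muscle peaks below the overall median enrichment left out, 9.70% of the 237 genes were listed in muscle, and 0 of 88 cytosolic ribosomal (0%), 17 of 78 mitochondrial ribosomal (21.8%) and 6 of 71 initiation and elongation genes (8.45%), beside 10.1% of all protein-coding genes. Only exon peaks left 20.7% of the genes listed in C2C12 and 14.8% of the cytosolic ribosomal genes. Only C2C12 peaks longer than the first quartile left 15.9% of the cytosolic ribosomal and 15.5% of the initiation and elongation genes. The counts by group under these settings were added after seeing the data. The other 33 alternative values, for denominators, name matching, accessory genes, gene length and the choice of peak, moved by less than the interval or spread of their main value. No paired analysis was possible because each list holds 1 value per peak over its libraries and no test was made. For the same reason the C2C12 IP libraries could not be left out in turn, and no limit of detection can be given without read counts.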
